A study of Drosophila melanogaster with 12 samples.

Results

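The proteasome is the protease complex that degrades proteins tagged with ubiquitin, and 39 genes for its subunits were followed through a day and a night of light and dark and a further day of darkness in heads of flies without a working clock gene timeless. The members were all genes whose symbol on the array's annotation begins with Prosalpha, Prosbeta, Rpn or Rpt and a subunit number, taken from probe sets with a single gene symbol. Each gene was read from its brightest probe set over the 12 arrays, which gave 39 of the 10844 genes measured. Of these, 12 encode general subunits of the core particle (6 of the alpha ring and 6 of the beta ring), 14 encode general subunits of the regulatory particle (10 Rpn and 4 Rpt), and 13 are paralogs whose symbols carry a T or an R after the subunit number. Prosbeta1, Rpn9, Rpn10, Rpt1 and Rpt6 had no probe set under these rules, and Prosalpha1 shares its probe set with Prosalpha1R, so these were not analysed as members here.

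The core particle is a barrel of stacked rings. The outer alpha rings form the gate, and the inner beta rings hold the proteolytic sites. The regulatory particle caps the barrel: its Rpt subunits are ATPases that unfold the substrate, and its Rpn subunits bind ubiquitin chains, remove them and hold the lid and base together. In Drosophila, several subunits have an additional gene copy that is known from the male germ line, and most of the T and R paralogs belong to these. Subunits are assembled in fixed proportions, and their genes are known to be regulated together in animals when proteasome activity is low, through Cap-n-collar transcription factors.

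All flies were y w; tim01, a genotype in which timeless function is lost, and no group with an intact timeless was analysed here, so nothing below shows an effect of the mutation. They had lived for 3 days in 12 h of light and 12 h of dark. Heads were then collected each 4 h, first under the light-dark cycle (LD: ZT2, ZT6 and ZT10 in light, ZT14, ZT18 and ZT22 in dark) and then in constant darkness (DD: CT2, CT6 and CT10 in the subjective day, CT14, CT18 and CT22 in the subjective night). All DD arrays were collected after the LD arrays, so light regime and day of collection cannot be told apart in comparisons between them. Each of the 4 phases holds 3 arrays, and each array is RNA from about 100 to 200 heads. The labels give neither the age nor the sex of the flies. The 3 arrays of a phase are different hours, and no time point was repeated. Every SD, and the SE and p-value of each contrast, therefore rests on the spread between hours, technical scatter included. Rhythm p-values rest on the scatter of the hours around the fitted curve. In limma, the SE and p-value of a gene also draw on the spread of the other probe sets.

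Values are log2 RMA signals, on which a difference of 1 is a doubling, and the median signal of an array lay between 4.099 and 4.141. The 6 measured photoreceptor markers had means from 7.59 (inaC) to 11.9 (Arr2), well above the array medians. Of the 6 measured neuron markers, 2 averaged below the median level of all probe sets (para, and elav, which read 3.43 to 4.09). The highest mean among the neuron markers was 6.85 (Csp). The brightest tim probe set read 6.62 to 7.12. Gut transcripts stood high on the ZT2 and CT2 arrays, and male accessory gland transcripts on these and ZT18. Relative to each gene's own mean, the mean of 23 gut genes reached 0.74 on ZT2 and 0.43 on CT2 (ZT18 0.04). The remaining 9 arrays lay between -0.20 and -0.01. That of 13 male accessory gland genes reached 0.75, 0.40 and 0.33 on ZT2, CT2 and ZT18, with the remaining 9 between -0.20 and -0.09. The medians on these arrays were smaller, so the genes of a list did not rise alike. They were 0.47 and 0.31 for gut on ZT2 and CT2, and 0.55, 0.23 and 0.13 for accessory gland on ZT2, CT2 and ZT18. In whole heads, fewer cells of a type and less RNA per cell cannot be told apart.

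The signals of proteasome transcripts varied little over both days. Across the 12 arrays the range of a member ran from 0.18 (Prosbeta2) to 0.44 (Prosbeta3) on the log2 scale, and the median SD of the 39 members was 0.10, against 0.11 over all probe sets tested. All 26 general members averaged above the median level of all probe sets, 24 of them on each of the 12 arrays, whereas 10 of the 13 paralogs lay below the array median on each array. Signals of different probe sets do not give relative amounts of transcript, so these statements place the signals only. The plot of levels by time point shows nearly flat lines in every role. The dimmest paralogs, Prosbeta4R1 and Prosbeta4R2, averaged 2.25 and 2.24, where the lowest signal of any probe set was 1.52. Whether such low signals rise above background was not tested, so their flat lines do not show a steady transcript.

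**Figure D1:**
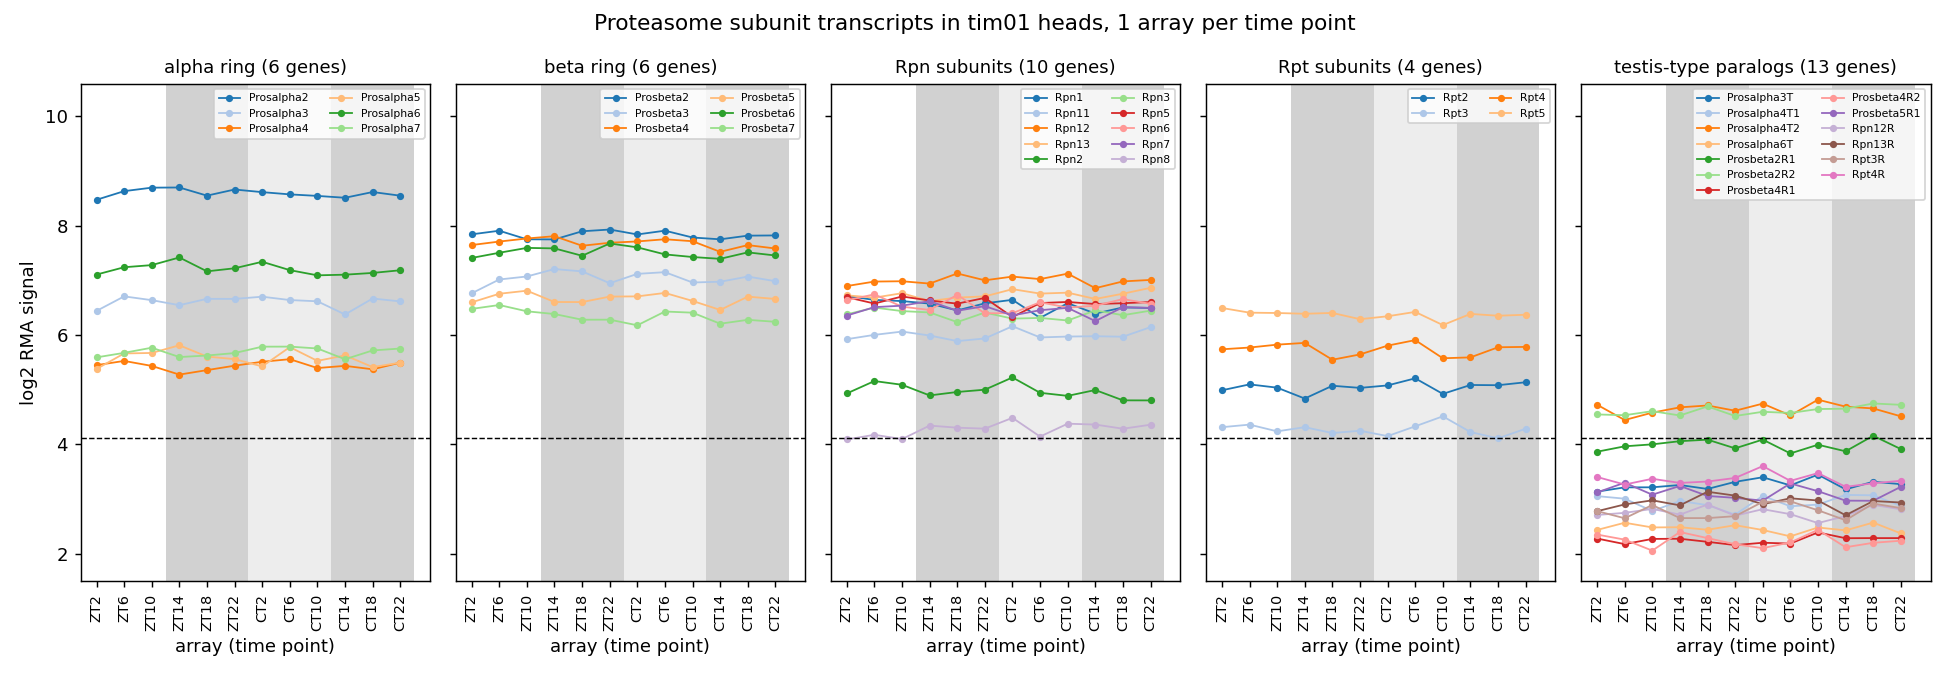
Log2 RMA signal of the 39 proteasome genes (y axis) on the 12 arrays in time order (x axis), 1 panel per role and 1 line per gene; dark shading marks darkness at night, light shading the subjective day, and the dashed line the median mean level of all probe sets (4.12). No line spans more than 0.44, and most paralogs stay below the dashed line.

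No member passed in any of the 8 comparisons (limma, Benjamini-Hochberg over all 13966 probe sets, adjusted p under 0.05). Light against dark phase in LD called 0 of 39 members where 0.129% of all probe sets were called, and 2 members (Rpn8 and Prosbeta7) had an unadjusted p under 0.05 against 6.26% of all. Subjective day against subjective night in DD called 0 of 39 against 0.0644%, with 1 member (Rpt4R) under the unadjusted threshold against 5.84%. The difference between these contrasts called 0 against 0%, with 1 member (Rpn3) against 5.21%. The members' shares under the unadjusted threshold, 5.13%, 2.56% and 2.56%, were no higher than those of all probe sets.

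DD day against LD day called 0 of 39 members (background 0.0215%), and 0 had an unadjusted p under 0.05 where 11.1% of all probe sets did. LD light phase against DD subjective day sets the same clock hours of the 2 days against each other, so light and day differ together. It called 0 (background 0.186%), with 2 members, Rpn8 and Prosalpha3T, under the unadjusted threshold (background 11.5%). LD dark phase against DD subjective night called 0 (background 0%), with 0 under the unadjusted threshold (background 4.87%). A 24 h rhythm was called for 0 members in LD (background 0.107%) and for 0 in DD (background 0.00716%); under the unadjusted threshold these were 1, Prosbeta3, and 0 (backgrounds 5.73% and 3.72%). The median fitted amplitude (mean to peak) of the members was 0.07 in LD and 0.07 in DD, and 0.07 on both days over all probe sets.

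How large a difference between phase or day means could still be present is given by the 95% intervals of the log2 changes. They were taken per gene and not widened for the number of genes. Changes between single hours are not bounded by them: Prosbeta3 spanned 0.44 from ZT2 to ZT14. For the dimmest paralogs they describe the signal only. In the LD contrast they reached from -0.36 to 0.33 over the 39 members, that is at most 1.29-fold lower and 1.26-fold higher in light. In the DD contrast they reached from -0.28 to 0.36, at most 1.21-fold lower and 1.28-fold higher in the subjective day. Between the 2 days the widest bounds were 1.17-fold lower and 1.195-fold higher in DD.

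**Figure D2:**
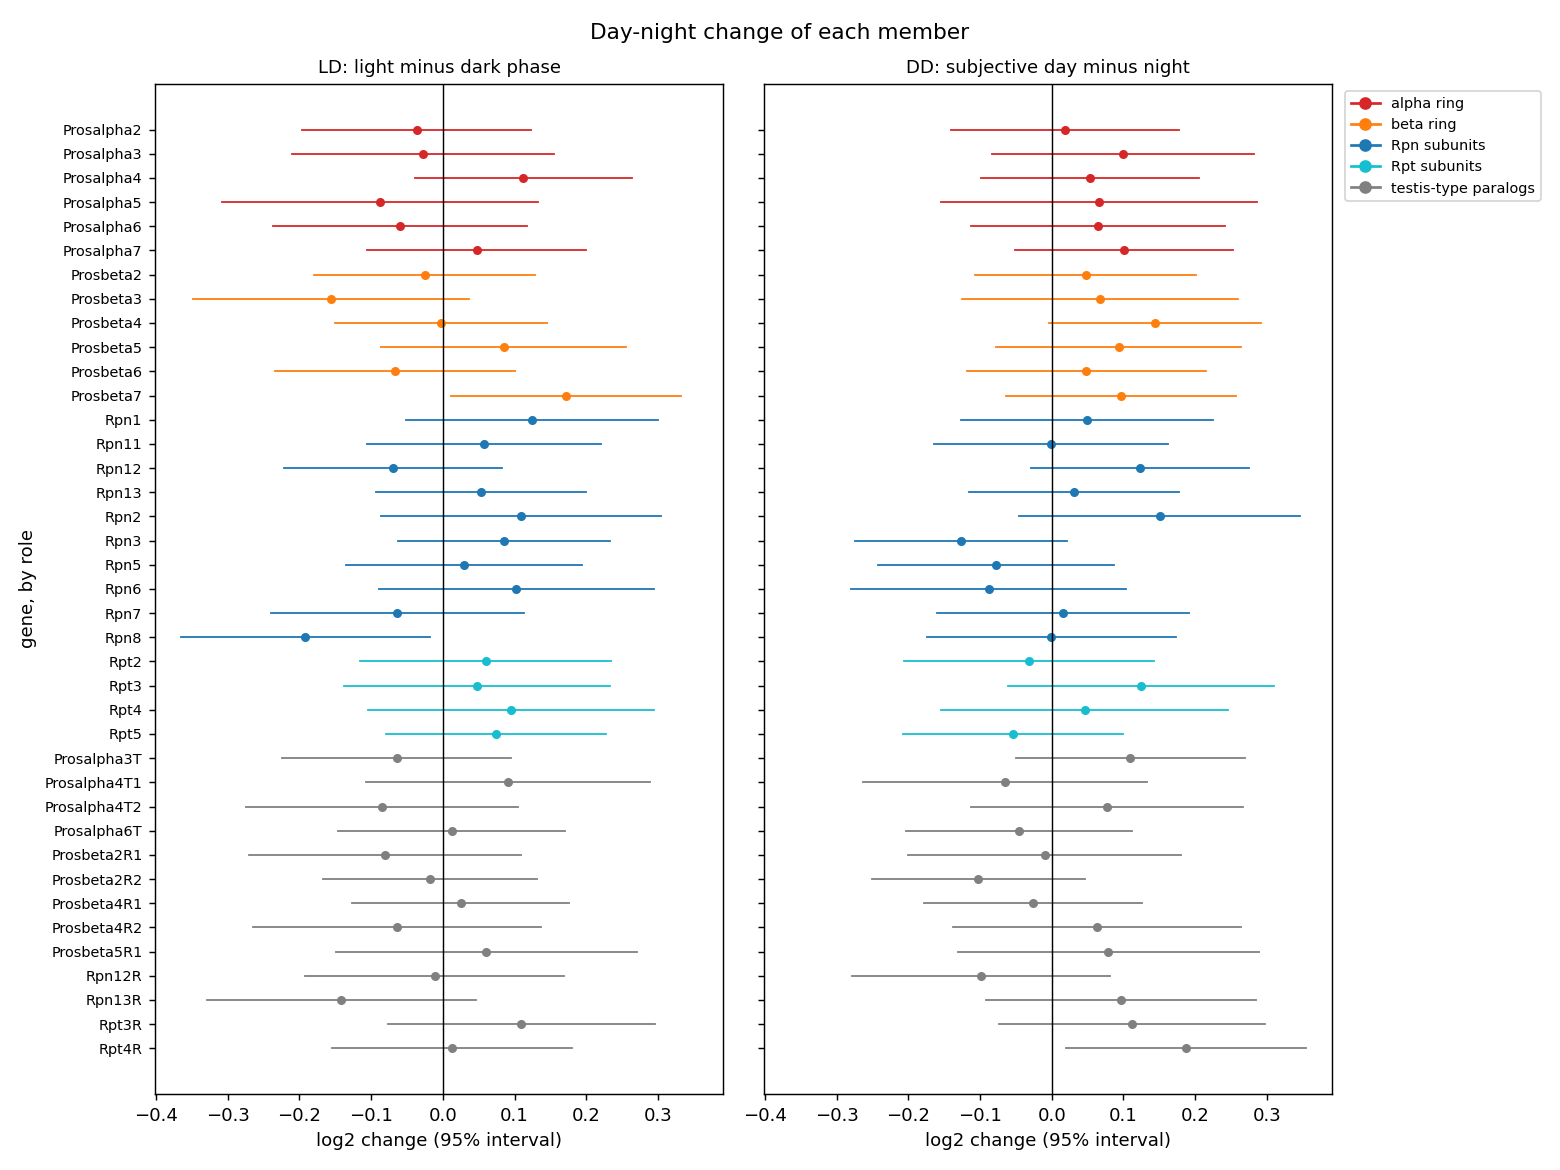
Log2 change (x axis) of each of the 39 genes (y axis, coloured by role) from dark to light phase in LD and from subjective night to subjective day in DD; points are the differences of group means of 3 arrays each, and bars the 95% intervals from limma. All 12 core particle points lie right of 0 in DD, and the bars cross 0 except for Prosbeta7 and Rpn8 in LD and Rpt4R in DD.

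The signs of the core particle genes were uneven between the 2 days. In DD, 12 of 12 core particle genes had a higher mean in the subjective day, by 0.02 to 0.14 with a median of 0.07, against 7 of 14 regulatory particle genes (median 0.01) and 52.7% of all probe sets (median 0.01). In LD, 4 of 12 core genes and 11 of 14 regulatory genes were higher in light (medians -0.03 and 0.06), against 47.2% of all probe sets (median -0.01). Leaving out 1 array at a time, the LD median of the core genes ran from -0.06 to 0.03 and so changed sign. None of these genes passed by itself, the subunits come from the same arrays, and the difference between core and regulatory particle was not tested.

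By array, the median deviation of the 12 core genes from their own means ran from -0.11 at CT14 and -0.10 at ZT2 to 0.08 at ZT10 and CT6. This was a wider course than that of the regulatory genes (-0.03 at CT14 to 0.05 at CT2). The median over all probe sets ran from -0.01 to 0.02. RMA and the number of probe sets hold that median near 0, so it is no measure for 12 genes. Only 1 of 12 core genes lay above its own mean at CT14 (Prosalpha5) and 3 did at ZT2, against 10 at ZT10 and 10 at CT2. For the regulatory particle the count above the own mean was 5 of 14 at CT14, 7 at ZT2 and 12 at CT22. The median DD change of the core genes was 0.043 without CT14, with 11 of 12 positive, and 0.106 without CT10, with 12 positive. Without CT2 it was 0.063, with 10 positive. Leaving out ZT2, ZT18 and CT2 together had to give the same values, because ZT2 and ZT18 do not enter the DD change. The ZT2 array is also the one highest in gut and male accessory gland transcripts (above), and their part in the low core signal there was not tested.

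**Figure D3:**
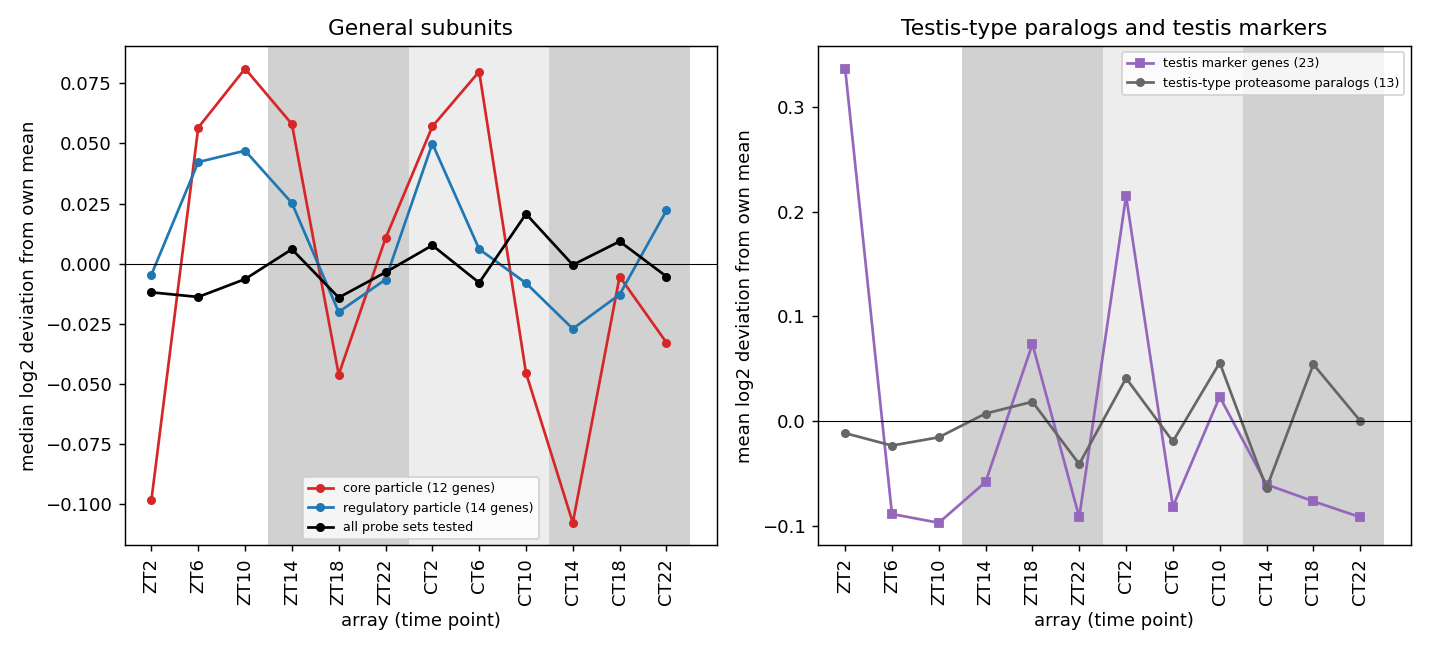
Left, median log2 deviation from each gene's own mean (y axis) for 12 core particle genes, 14 regulatory particle genes and all probe sets on the 12 arrays (x axis), with the core line lowest at ZT2 and CT14. Right, mean log2 deviation of 23 testis marker genes, which peaks at ZT2 (0.34) and CT2 (0.22), and of the 13 testis-type paralogs, which stays between -0.06 and 0.06; dark shading marks darkness at night and light shading the subjective day.

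Among the 6 alpha ring genes, whose products form the gate of the barrel, ranges over the 12 arrays ran from 0.23 to 0.43. Prosalpha5 was the most variable, and it read 5.38, 5.66 and 5.67 in the light phase, 5.81, 5.61 and 5.56 in the dark phase, 5.43, 5.78 and 5.53 in the subjective day and 5.63, 5.41 and 5.50 in the subjective night. Its lowest and highest arrays were ZT2 and ZT14, the phases overlapped on both days, and its fitted LD rhythm (amplitude 0.16, peak at 12.8 h) did not pass (limma, adjusted p = 0.886). Prosalpha7 read 5.59, 5.67 and 5.77 in the light phase, 5.60, 5.63 and 5.67 in the dark phase, 5.79, 5.79 and 5.75 in the subjective day and 5.56, 5.72 and 5.75 in the subjective night. Its subjective day arrays all lay above its subjective night arrays, narrowly at CT10 and CT22 and most widely at CT14, by 0.10 ± 0.07 (SE; adjusted p = 0.870). Separation of this kind was seen for 3 of 39 members in DD (Prosalpha7, Prosbeta4 and Rpn12), where 5.4% of all probe sets showed it.

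The other alpha ring genes overlapped between phases on both days. Prosalpha2 stayed within 8.47 to 8.70, Prosalpha3 within 6.38 to 6.71, Prosalpha4 within 5.28 to 5.56 and Prosalpha6 within 7.09 to 7.42. Prosalpha3 had its lowest value at CT14, Prosalpha2 at ZT2, Prosalpha4 at ZT14 and Prosalpha6 at CT10, so no hour was the low point of all.

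In the beta ring, Prosbeta2 carries the trypsin-like and Prosbeta5 the chymotrypsin-like proteolytic site. Prosbeta2 read 7.84, 7.91 and 7.75 in the light phase, 7.75, 7.90 and 7.93 in the dark phase, 7.84, 7.91 and 7.79 in the subjective day and 7.75, 7.82 and 7.82 in the subjective night, the narrowest range of all general members. Prosbeta5 read 6.60, 6.76 and 6.81 in the light phase, 6.61, 6.60 and 6.70 in the dark phase, 6.71, 6.77 and 6.62 in the subjective day and 6.46, 6.70 and 6.66 in the subjective night. Their LD changes were -0.03 ± 0.07 (SE; adjusted p = 0.991) and 0.08 ± 0.08 (SE; adjusted p = 0.958), and their DD changes 0.05 ± 0.07 (SE; adjusted p = 0.951) and 0.09 ± 0.08 (SE; adjusted p = 0.893). Neither gene separated the phases on either day.

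The noncatalytic beta subunit genes held the largest LD and DD changes of the core. Prosbeta7 read 6.48, 6.55 and 6.43 in the light phase, 6.38, 6.28 and 6.28 in the dark phase, 6.18, 6.43 and 6.41 in the subjective day and 6.21, 6.28 and 6.24 in the subjective night. Its light phase arrays all lay above the dark phase arrays, by 0.17 ± 0.08 (SE; adjusted p = 0.769), whereas in DD the phases overlapped. Such an ordering in LD was seen for 2 of 39 members (Prosbeta7 and Rpn1), against 5.62% of all probe sets. Between the days its change was -0.11 ± 0.05 (SE; adjusted p = 0.463), with means of 6.29 ± 0.11 in DD and 6.40 ± 0.11 in LD (SD, n = 6 arrays each), and did not pass in either comparison. Its fitted LD rhythm (amplitude 0.13, peak at 6.5 h) had an adjusted p of 0.920 with limma.

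Prosbeta3 had the widest range of the 39 members, and read 6.76, 7.02 and 7.07 in the light phase, 7.21, 7.17 and 6.95 in the dark phase, 7.12, 7.15 and 6.96 in the subjective day and 6.98, 7.07 and 6.99 in the subjective night. The array lowest for it was ZT2, and the LD phases overlapped (-0.16 ± 0.09 SE, adjusted p = 0.887). The cosine fitted through the 6 LD arrays had an amplitude of 0.19 and a peak at 14.1 h, and did not pass (limma, adjusted p = 0.614), and the DD amplitude was 0.07 (adjusted p = 1.00). Prosbeta4 read 7.65, 7.71 and 7.77 in the light phase, 7.81, 7.63 and 7.69 in the dark phase, 7.71, 7.75 and 7.72 in the subjective day and 7.52, 7.65 and 7.58 in the subjective night. In DD its subjective day stood above its subjective night without overlap (0.14 ± 0.07 SE, adjusted p = 0.829), and the LD dark phase overlapped the subjective night in level (0.13 ± 0.07 SE, adjusted p = 0.998). Prosbeta6 stayed within 7.40 and 7.68 and overlapped between the phases.

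**Figure D4:**
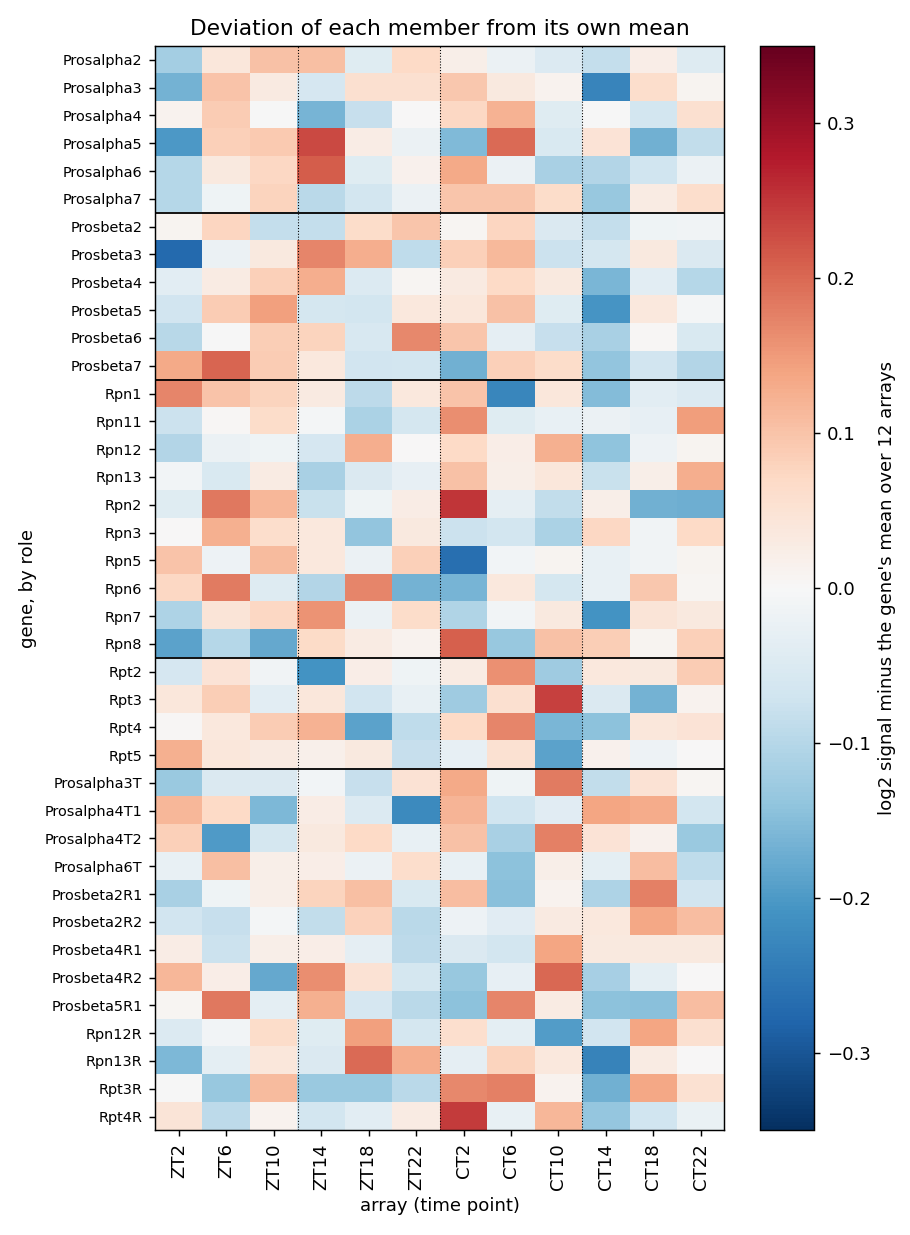
Log2 signal minus the gene's mean over 12 arrays (colour) for each of the 39 genes (rows, in the order alpha ring, beta ring, Rpn, Rpt and testis-type paralogs, divided by lines) on the 12 arrays (columns; dotted lines divide the phases). The CT14 column is below the mean in 11 of 12 core particle genes, and Rpn8 is low on the 3 light phase arrays.

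Of the Rpn subunits, Rpn1 and Rpn2 are the large scaffold proteins of the base. Rpn1 read 6.71, 6.64 and 6.62 in the light phase, 6.58, 6.45 and 6.58 in the dark phase, 6.64, 6.32 and 6.58 in the subjective day and 6.39, 6.51 and 6.50 in the subjective night. Its light phase arrays lay above its dark phase arrays (0.12 ± 0.08 SE, adjusted p = 0.920), and the DD phases overlapped around a low CT6 value. Rpn2 read 4.93, 5.16 and 5.09 in the light phase, 4.90, 4.96 and 5.001 in the dark phase, 5.22, 4.94 and 4.89 in the subjective day and 4.995, 4.81 and 4.80 in the subjective night, highest at CT2 and lowest at CT22, with overlap on both days. Rpn13, a ubiquitin receptor, stayed within 6.62 to 6.86.

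Rpn11, the deubiquitinase of the lid, and Rpn8, its catalytically inactive partner, form a pair in the complex. Rpn11 stayed within 5.89 to 6.16, with an LD change of 0.06 ± 0.08 (SE; adjusted p = 0.966). Rpn8 read 4.09, 4.18 and 4.097 in the light phase, 4.34, 4.31 and 4.29 in the dark phase, 4.49, 4.14 and 4.38 in the subjective day and 4.36, 4.29 and 4.36 in the subjective night. Its 3 light phase arrays were below its 3 dark phase arrays, and it was the only member ordered in this way in LD, against 6.56% of all probe sets. The LD change of Rpn8 was -0.19 ± 0.08 (SE; adjusted p = 0.750), with means of 4.12 ± 0.05 in light and 4.31 ± 0.03 in dark (SD, n = 3 arrays each).

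In DD the phases of Rpn8 had equal means, 4.34 ± 0.18 and 4.34 ± 0.04 (SD, n = 3 arrays each). Against the DD subjective day the light phase was lower by 0.22 on the log2 scale (SE 0.08; limma, adjusted p = 0.314), although CT6 fell among the light phase values. Without CT6, its lowest subjective day array, this change was -0.31 (limma, adjusted p = 0.0548). That came nearest to a call of all members and settings, in a fit that leaves out the array most against the change. Over the 2 days Rpn8 was higher in DD, by 0.12 ± 0.06 (SE; adjusted p = 0.462). The difference between its LD and DD contrasts was -0.19 ± 0.12 (SE; adjusted p = 0.935).

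The lid subunits Rpn3, Rpn5, Rpn6, Rpn7 and Rpn12 are structural proteins. Rpn3 read 6.38, 6.50 and 6.44 in the light phase, 6.41, 6.24 and 6.41 in the dark phase, 6.30, 6.31 and 6.27 in the subjective day and 6.45, 6.36 and 6.45 in the subjective night. Its subjective day lay below its subjective night without overlap (-0.13 ± 0.07 SE, adjusted p = 0.829), an order shared by 2 of 39 members (Rpn3 and Prosbeta2R2) and 4.82% of all probe sets, and its LD phases overlapped. The light phase mean of Rpn3 was above its subjective day mean (0.15 ± 0.07 SE, limma adjusted p = 0.437). The difference between its LD and DD contrasts, 0.21 ± 0.10 (SE; adjusted p = 0.935), had the smallest p of the members and did not pass.

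Rpn12 read 6.90, 6.98 and 6.99 in the light phase, 6.94, 7.13 and 7.002 in the dark phase, 7.07, 7.02 and 7.12 in the subjective day and 6.86, 6.98 and 7.01 in the subjective night. Its subjective day lay above its subjective night, by 0.12 ± 0.07 (SE; adjusted p = 0.831), and the LD phases overlapped. The difference between the contrasts was -0.19 ± 0.10 (SE; adjusted p = 0.935). Rpn5 stayed within 6.33 and 6.71, Rpn6 within 6.40 and 6.74 and Rpn7 within 6.26 and 6.62, all with overlapping phases on both days. Rpn5 was lowest at CT2, Rpn6 at ZT22 and Rpn7 at CT14.

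The Rpt genes encode the ATPase ring. All 4 measured had a higher mean in the light phase, by 0.05 to 0.10, and 2 of 4 had a higher mean in the subjective day (median 0.01), where 47.2% and 52.7% of all probe sets did. Their intervals all included 0 on both days. Rpt3 read 4.32, 4.36 and 4.24 in the light phase, 4.32, 4.21 and 4.25 in the dark phase, 4.15, 4.33 and 4.51 in the subjective day and 4.23, 4.11 and 4.29 in the subjective night. Rpt4 read 5.74, 5.77 and 5.83 in the light phase, 5.86, 5.55 and 5.65 in the dark phase, 5.81, 5.91 and 5.58 in the subjective day and 5.59, 5.78 and 5.78 in the subjective night. These had the largest fitted DD amplitudes among the general members (Rpt3 0.13 with a peak at 8.8 h, Rpt4 0.13 with a peak at 1.3 h), with adjusted p of 1.00 for each with limma, and their phases overlapped on both days. Rpt2 stayed within 4.84 and 5.21 and Rpt5 within 6.18 and 6.50.

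The 13 paralogs of the T and R series comprise Prosalpha3T, Prosalpha4T1, Prosalpha4T2 and Prosalpha6T of the alpha ring, Prosbeta2R1, Prosbeta2R2, Prosbeta4R1, Prosbeta4R2 and Prosbeta5R1 of the beta ring, and Rpn12R, Rpn13R, Rpt3R and Rpt4R of the regulatory particle. As a group they had 6 of 13 higher in light in LD (median -0.01, and from -0.0327 to 0.0065 leaving out 1 array at a time) and 7 of 13 higher in the subjective day in DD (median 0.06, and from -0.0208 to 0.0702), so both medians changed sign, and 0 passed in any comparison with limma.

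Of the alpha ring paralogs, all but Prosalpha4T2 lay below the array median on each array. Prosalpha3T read 3.14, 3.21 and 3.21 in the light phase, 3.26, 3.19 and 3.31 in the dark phase, 3.40, 3.25 and 3.45 in the subjective day and 3.18, 3.32 and 3.27 in the subjective night. Its light phase mean was below its subjective day mean, with a change of -0.18 ± 0.08 (SE, limma adjusted p = 0.376). Prosalpha4T1 read 3.05, 3.01 and 2.78 in the light phase, 2.96, 2.89 and 2.71 in the dark phase, 3.06, 2.87 and 2.90 in the subjective day and 3.08, 3.07 and 2.87 in the subjective night. Prosalpha4T2, one of the 2 paralogs above the array median throughout, read 4.73, 4.45 and 4.58 in the light phase, 4.68, 4.71 and 4.62 in the dark phase, 4.75, 4.53 and 4.82 in the subjective day and 4.69, 4.66 and 4.51 in the subjective night. Prosalpha6T read 2.44, 2.57 and 2.48 in the light phase, 2.48, 2.44 and 2.52 in the dark phase, 2.43, 2.32 and 2.48 in the subjective day and 2.43, 2.57 and 2.37 in the subjective night. Light and dark phase, and subjective day and night, overlapped for these 4 genes.

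Of the beta ring paralogs, Prosbeta2R2 stayed above the array median, and it read 4.55, 4.53 and 4.61 in the light phase, 4.53, 4.70 and 4.52 in the dark phase, 4.60, 4.58 and 4.65 in the subjective day and 4.65, 4.75 and 4.72 in the subjective night. Its subjective day lay below its subjective night, narrowly at CT10 and CT14 (-0.10 ± 0.07 SE, adjusted p = 0.870), and the LD dark phase was lower than the subjective night by 0.13 with overlap (SE 0.07; limma, adjusted p = 0.998). Prosbeta2R1 read 3.87, 3.96 and 4.001 in the light phase, 4.06, 4.09 and 3.93 in the dark phase, 4.09, 3.83 and 3.99 in the subjective day and 3.87, 4.16 and 3.92 in the subjective night, crossing the array median at CT18. Prosbeta4R1 read 2.28, 2.18 and 2.27 in the light phase, 2.27, 2.22 and 2.16 in the dark phase, 2.20, 2.19 and 2.39 in the subjective day and 2.28, 2.29 and 2.29 in the subjective night. Prosbeta4R2 read 2.35, 2.26 and 2.06 in the light phase, 2.40, 2.29 and 2.17 in the dark phase, 2.10, 2.21 and 2.44 in the subjective day and 2.12, 2.20 and 2.24 in the subjective night. By mean signal, 8.03% and 7.65% of all probe sets ranked below these. Prosbeta5R1 read 3.12, 3.30 and 3.08 in the light phase, 3.24, 3.06 and 3.02 in the dark phase, 2.97, 3.29 and 3.14 in the subjective day and 2.97, 2.97 and 3.22 in the subjective night, with overlapping phases on both days.

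Among the regulatory particle paralogs, Rpt4R had the largest DD change of the 39 members. It read 3.40, 3.27 and 3.37 in the light phase, 3.29, 3.32 and 3.39 in the dark phase, 3.60, 3.33 and 3.48 in the subjective day and 3.22, 3.29 and 3.33 in the subjective night. The change was 0.19 ± 0.08 (SE; adjusted p = 0.819); CT2 was its highest array, and CT6 overlapped the subjective night. Rpt3R read 2.78, 2.65 and 2.89 in the light phase, 2.65, 2.65 and 2.69 in the dark phase, 2.95, 2.96 and 2.79 in the subjective day and 2.61, 2.92 and 2.83 in the subjective night, with a higher mean in DD by 0.13 ± 0.06 (SE; adjusted p = 0.471). Rpn12R read 2.71, 2.75 and 2.82 in the light phase, 2.71, 2.90 and 2.70 in the dark phase, 2.81, 2.72 and 2.56 in the subjective day and 2.69, 2.89 and 2.81 in the subjective night. Its DD amplitude of 0.13 with a peak at 21.6 h had the smallest rhythm p of the members in DD (limma, adjusted p = 1.00). Rpn13R read 2.78, 2.90 and 2.98 in the light phase, 2.88, 3.13 and 3.06 in the dark phase, 2.91, 3.01 and 2.97 in the subjective day and 2.70, 2.96 and 2.94 in the subjective night, with a difference between the LD and DD contrasts of -0.24 ± 0.13 (SE; adjusted p = 0.935) and an LD dark phase above the subjective night by 0.16 ± 0.09 (SE; adjusted p = 0.998).

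The paralogs were set beside testis transcripts, because these stood high on some arrays. Of 30 testis marker genes 23 were measured, 16 of them below the median level of all probe sets, and their mean deviation was highest on ZT2 (0.34) and CT2 (0.22), followed by ZT18 (0.07), with the remaining 9 arrays between -0.10 and 0.02. Levels differed in direction within the list. The sperm protein gene dj, with Mst84Dc among the 3 markers furthest above their other arrays at ZT2, read 3.10 at ZT2, 2.28 at ZT18, 2.68 at CT2 and 1.80 to 2.12 elsewhere, and Mst84Dc read 6.50, 5.80, 6.01 and 4.98 to 5.56. The germ line gene bol read 5.88 at ZT2, 6.08 at ZT18, 5.96 at CT2 and 6.07 to 6.35 elsewhere. The 13 proteasome paralogs had mean deviations of -0.01, 0.02 and 0.04 on the same arrays and -0.06 to 0.06 on the others.

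At ZT2 the testis markers exceeded their mean over those 9 arrays by a median of 0.34 (from -0.29 for bol to 1.404 for Mst84Da), 8 of 23 by more than 0.5. On that array 13 of 23 were highest and 2, bol and can, were lowest. For the paralogs the median was -0.02 (from -0.16 to 0.14), and 0 of 13 were highest at ZT2. Of the paralogs, 11 of 13 averaged below the median level of all probe sets. The difference between the lists was not tested.

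Other genes of the ubiquitin pathway were taken from a list of 67 fixed with earlier results known, of which 53 were measured: ubiquitin genes, conjugating enzymes, ligase and COP9 subunits, shuttle factors, deubiquitinases, regulators, and proteasome activators, inhibitor and assembly factors. By limma, 0 of the 53 were called higher and 0 lower in each of the 8 comparisons. That count depended on the fit: it was above 0 in 6 of 147 alternatives, for TER94, Rad23 and Ubi-p63E (below). Under the unadjusted threshold there were 11 of 53 between the days (20.8%, against 11.1% of all probe sets) and 8 for light phase against subjective day (15.1% against 11.5%). There were 4 in the LD contrast (7.55% against 6.26%), 1 in the DD contrast (1.89% against 5.84%) and 2 in their difference (3.77% against 5.21%). Dark phase against subjective night had 1 (1.89% against 4.87%), the LD rhythm 1 (1.89% against 5.73%) and the DD rhythm 2 (3.77% against 3.72%). The median LD change of the 53 was 0.02 with 29 positive, and the median DD change -0.01 with 22 positive.

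The polyubiquitin gene Ubi-p63E, a main source of free ubiquitin, had the largest LD change of the list. It read 9.36, 9.76 and 9.62 in the light phase, 9.34, 8.98 and 9.14 in the dark phase, 9.10, 9.26 and 9.23 in the subjective day and 9.38, 9.14 and 9.48 in the subjective night. It was higher in the light phase, by 0.43 ± 0.11 (SE; adjusted p = 0.289), and its light phase arrays all lay above its dark phase arrays, with ZT2 just above ZT14. Without ZT2, its lowest light phase array, the change was 0.54 and passed (limma, adjusted p = 0.0396). Leaving out that array widens the change, so this pass shows only a dependence on 1 array. The difference of its LD and DD contrasts was 0.57 ± 0.16 (SE; adjusted p = 0.845), and its LD rhythm amplitude of 0.37 did not pass (limma, adjusted p = 0.127).

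TER94, the segregase that hands ubiquitylated proteins to the proteasome, read 8.23, 8.18 and 8.07 in the light phase, 8.09, 7.87 and 7.94 in the dark phase, 7.89, 7.71 and 7.63 in the subjective day and 7.93, 7.66 and 7.71 in the subjective night. Its mean was higher in the light phase than in the subjective day (0.42 ± 0.09 SE, limma adjusted p = 0.0683). It was lower in the DD day as a whole (-0.31 ± 0.06 SE, limma adjusted p = 0.0794). Rad23, a shuttle factor that carries ubiquitin chains to Rpn subunits, read 6.04, 6.22 and 6.10 in the light phase, 5.97, 5.96 and 5.84 in the dark phase, 5.74, 6.03 and 5.64 in the subjective day and 5.90, 5.65 and 5.78 in the subjective night. Its light phase mean was also above its subjective day mean (0.32 ± 0.10 SE, limma adjusted p = 0.193). Between the days its change was -0.24 ± 0.07 (SE, limma adjusted p = 0.192). TER94 in these comparisons had the lowest adjusted p of the 53 genes and did not pass in this fit, which has no term for clock hour. Without CT14, its highest DD array, the change of TER94 between the days was -0.35 and passed (limma, adjusted p = 0.0452). Without CT6 those of Rad23 passed, at -0.29 between the days (limma, adjusted p = 0.0367) and 0.43 for light phase against subjective day (limma, adjusted p = 0.0284).

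**Figure D5:**
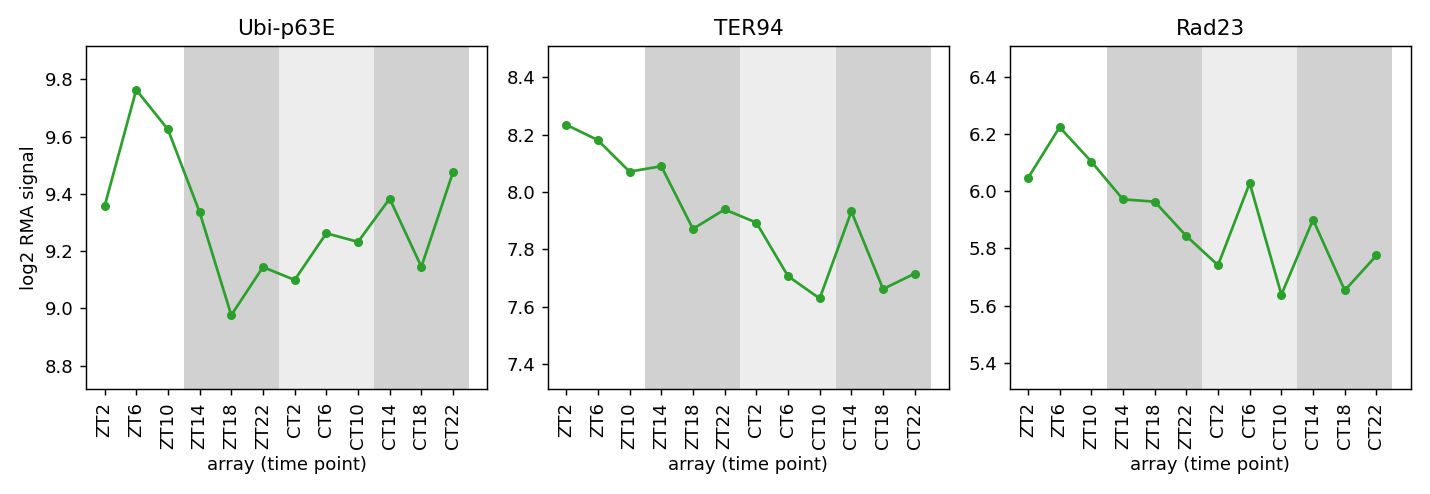
Log2 RMA signal (y axis, of equal height in every panel) of Ubi-p63E, TER94 and Rad23 on the 12 arrays (x axis); dark shading marks darkness at night and light shading the subjective day. TER94 reads 8.23 at ZT2 and 7.63 at CT10, and Ubi-p63E is highest at ZT6 (9.76).

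PI31, a proteasome regulator gene, was higher in the subjective day (0.19 ± 0.06 SE, adjusted p = 0.770) and had a DD amplitude of 0.14, and CG12321 one of 0.18 (limma, adjusted p = 1.00 for each). The COP9 gene CSN6 was lower in light (-0.21 ± 0.08 SE, adjusted p = 0.652), and CSN5 had a difference of contrasts of -0.23 ± 0.11 (SE; adjusted p = 0.935). Cul1, a ligase scaffold gene, had a DD change of -0.17 ± 0.08 (SE; adjusted p = 0.829), the ubiquitin-conjugating enzyme gene Ubc2 had an LD amplitude of 0.19 (limma, adjusted p = 0.881), and between dark phase and subjective night TER94 was at 0.20 ± 0.09 (SE; adjusted p = 0.998) and CSN1a at -0.15 ± 0.07 (SE; adjusted p = 0.998). The regulator gene cnc, which encodes the Cap-n-collar factor, read 4.23, 4.38 and 4.32 in the light phase, 4.42, 4.07 and 4.29 in the dark phase, 4.61, 4.19 and 4.40 in the subjective day and 4.20, 4.33 and 4.34 in the subjective night, with overlapping phases on both days.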

How the data were processed

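The authors deposited log2 values, 1 per probe set and array, made with RMA per the submitters' processing notes (background correction, normalization between arrays, summary of probes); its version is not given in the sources used here. RMA gives the arrays nearly one distribution, so a shift shared by most transcripts is removed. Of 14010 probe sets, 44 controls were left out. The platform annotation gave 1 symbol to 12443 of the rest. Tests used limma 3.58.1 in R 4.3.3 (intensity trend, all 12 arrays): a mean per phase for 6 contrasts (8 residual degrees of freedom), and a mean, cosine and sine per day for 24 h rhythms (6 residual degrees of freedom). P-values were adjusted by Benjamini-Hochberg over 13966 probe sets. All adjusted p-values in the report are from these limma fits, except where an array left out or the clock-hour block is named. Those are from limma fits with that change. The most alike arrays shared 56 identical values, so none was a copy. The steps were tested on simulated data.

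Members and lists were chosen with earlier results of these data known. Named with values on each array were, per comparison, the members that passed or else the 3 with the smallest p, all T and R paralogs, the 3 general members with the widest range, and Prosbeta2 and Prosbeta5, the measured ones of the catalytic subunits; Prosalpha7, Rpn1 and cnc were added after their values were seen. Pathway genes named were the 2 with the smallest p per comparison. Alternatives were the moderation, array weights, a filter on dim probe sets, another quantile normalization, clock hour as a block, all probe sets of a member, and arrays left out. No sequences were used here, so promoter motifs and protein identities, which had been planned, are not reported.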

Additional observations from a re-analysis of the deposited data

Results flagged for a closer look

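Among the 6 arrays of a day, 5 of 78 sets of values (39 members on 2 days, 6.41%) held 1 array far from the others by Dixon's ratio, which chance gives in about 1 in 20. All 5 were low values in DD. At CT14, Prosalpha3 read 6.38 against 6.62 to 6.70 on the other DD arrays, Prosalpha7 5.56 against 5.72 to 5.79, and Rpn13R 2.70 against 2.91 to 3.01. At CT2, Rpn5 read 6.33 against 6.57 to 6.61. At CT10, Rpt5 read 6.18 against 6.34 to 6.42.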

How the results depend on the processing

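The count of members called was 0 in each of the 8 comparisons and stayed 0 under all 155 alternative fits of them, with a lowest adjusted p of 0.0548 (limma; Rpn8, light phase against subjective day, without CT6). With clock hour as a replicate block it was also 0 in the 3 comparisons between days, where the lowest adjusted p of a member was 0.275. The hours are not a stated pairing: deviations from the phase means correlated between arrays of one clock hour by 0.03 to 0.45, and 3 of 6 LD arrays correlated best with their own hour in DD. Over all probe sets the block gave 118 calls in place of 3 between the days and 142 in place of 26 for light phase against subjective day, where other alternatives gave as few as 15. Apart from arrays left out singly, the alternatives gave 7 to 38 (15 as reported) for the LD rhythm, 4 to 12 (9) for the DD contrast, 18 to 31 (18) for the LD contrast, 1 or 2 (1) for the DD rhythm and 0 to 3 (0) for the difference of contrasts. None of the 18 named member results with a sign turned it in 328 alternatives, and the other 6 are amplitudes, which have none. Some of the 328 could not turn a sign, so this count does not measure stability. Another moderation changes only the SE and p-value. An array outside both phases of a contrast does not enter its difference. Among the 53 pathway genes, counted over alternatives after seeing the data, 0 were called in the fits reported. The replicate block called 1 between the days (TER94, -0.31, adjusted p = 0.0121) and 2 for light phase against subjective day (TER94, 0.42, adjusted p = 0.0109, and Ubi-p63E, 0.38, adjusted p = 0.0372; limma). Leaving out 1 array, 0 to 1 were called in these comparisons and in the LD contrast. Of 433 alternatives for the median change of core, regulatory and testis-type genes, 16 moved it by more than the spread between arrays of a phase. Without ZT2, ZT18 and CT2, the median of the regulatory genes for light phase against subjective day was 0.0523 in place of 0.0233. Leaving out 1 array at a time, the regulatory median ran from 0.0301 to 0.0715 in the LD contrast, from -0.0228 to 0.055 in the DD contrast, from 0.00867 to 0.0919 for their difference, from 0.00133 to 0.061 for light phase against subjective day, from -0.0225 to 0.0138 for dark phase against subjective night, from 0.0597 to 0.0999 for the LD amplitude and from 0.0689 to 0.111 for the DD amplitude. The testis-type median ran from -0.0208 to 0.0702 in DD and from -0.0812 to 0.0235 for the difference of contrasts. The cause was not tested beyond the array left out. The number of core genes higher in the subjective day, counted after seeing the data, was 10 to 12 of 12, and that of regulatory genes higher in light 10 or 11 of 14. Paralogs left out by the filter on dim probe sets have no value there. The number of arrays, 1 per time point, limits the precision.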

Other observations

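Further probe sets of members exist. The dimmer probe set of Prosbeta6 read from 4.49 to 4.98, highest at CT2, with a DD change of 0.22 in place of 0.05 for the brighter one, and that of Prosalpha7 read from 3.16 to 3.42 with a DD change of 0.01 in place of 0.10. The probe set shared by Prosalpha1 and Prosalpha1R read from 6.98 to 7.18, with changes of -0.04 in LD and 0.08 in DD.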
